A study of Mus musculus with 10 samples.

Results

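The genes described here are 9 members of the Hedgehog pathway and of the Bmp signalling that lies beside it in the bladder stroma, namely Shh, Ptch1, Smo, Gli1, Gli2, Gli3, Hhip, Bmp4 and Bmp5. They were chosen by name from the 55536 genes counted in each library, and their gene identifiers were matched to symbols in GENCODE vM21 of mouse build GRCm38. All 9 were found, and all 9 passed the filter on low counts in each of the 3 comparisons.

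Polyadenylated RNA of mouse bladder was sequenced in 10 libraries, 4 from WT mice, 3 from OMD-/- mice and 3 from PRELP-/- mice, all labelled C57BL/6 and with no treatment named. The study's text gives other group sizes for its bladder RNA-seq than the labels do, and the labels were followed here. OMD and PRELP are secreted small leucine-rich proteoglycans of the extracellular matrix. Per the study, both knockouts were constitutive, with exons 2 and 3 removed and a β-galactosidase gene knocked in at the locus, so no cell type in these mice was spared. The genotype label of the PRELP knockout is spelled PRLEP-/-. The labels describe homogenised bladder tissue, whereas the study speaks of isolated bladder epithelia. The age of the mice used for RNA, and whether mice were pooled, are not given in the sources used here, so p-values measure only the spread between these libraries, which may be technical. The shallowest library, WT replicate 4, held 20391437 counts and the deepest, WT replicate 1, held 46269079.

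Hedgehog signalling starts with a secreted ligand. In the absence of ligand the receptor Ptch1 holds the membrane protein Smo inactive. Once ligand occupies Ptch1, Smo is released and the Gli transcription factors turn on target genes, among which are Gli1, Ptch1 and Hhip themselves. In the bladder, Shh is known as a product of basal urothelial cells, the receiving cells lie mostly in the stroma beneath them, and Bmp4 and Bmp5 are among the factors that stromal cells send back to the epithelium.

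The targeted genes were read before the members. Counts of Omd were 0, 1, 8 and 12 in WT and 5, 7 and 7 in PRELP-/-, while all OMD-/- libraries were at 0, too few for a test. WT replicates 1 and 2, at 0 and 1, were not told from OMD-/- by this gene. Prelp stood at 268 ± 43.4 CPM (reads as a share of the library, scaled by TMM over the 10 libraries, mean ± SD, n = 4) in WT and at 2.72 ± 1.29 CPM (n = 3) in PRELP-/-. In OMD-/- its mean was 807 CPM.

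Some libraries stood apart. PRELP-/- replicate 1 was far from replicates 2 and 3, with an SD of log2 CPM differences over genes of 0.819 and 0.845, where replicates 2 and 3 differed from each other by 0.219. OMD-/- replicates 2 and 3 (0.253) and WT replicates 3 and 4 (0.243) were close pairs too, and these pairs still differed by more than counting noise (a median chi-square per gene of 0.995 for the PRELP-/- pair and 1.11 for the OMD-/- pair, where counting noise alone gives 0.455). Separate library preparations of 1 RNA could also differ by more than counting noise, so this does not tell whether the libraries of a pair came from separate mice. Each library was kept as 1 replicate, as labelled, and counts with the pairs summed are given further on. That summing also joined WT replicates 1 and 2, which were less close (0.317), and so left 2 samples in each group. Summed Y chromosome genes stood at 167 and 194 CPM in WT replicates 1 and 2 and at 1.06 and 1.46 CPM in WT replicates 3 and 4. They were at 0.914 to 18.6 CPM in OMD-/- and at 18.9 to 120.5 CPM in PRELP-/-. Xist, the RNA of the inactive X chromosome, was at 38.2 to 88.8 CPM in all 3 OMD-/- libraries and in PRELP-/- replicates 2 and 3, against 1020.2 and 1227 CPM in WT replicates 3 and 4, and the labels give no sex. The nuclear RNA Malat1 was at 757 to 1117 CPM in WT and at 177 to 318 CPM in the knockout libraries. Neat1, also a nuclear RNA, was at 342 to 450 CPM in WT and at 13.2 to 26.3 CPM in the knockout libraries. The part of these RNAs in the members' values was not tested.

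The markers of the labelled tissue were present in every library. In WT, 7 umbrella cell markers summed to 9304 to 11166 CPM, 7 basal urothelial markers to 2665 to 3423 CPM and 9 fibroblast markers to 8564 to 9699.7 CPM, so RNA of epithelium and of stroma was present. The 6 male accessory gland markers were at 0 in every library. The 6 skeletal muscle markers summed to at most 15.1 CPM, and of 5 adipose markers only 1 was detected in any library.

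In WT bladder the ligand was the most abundant member per unit of length. On the scale of CPM per kilobase of exon, levels were 56.8 ± 5.0 for Shh (mean ± SD, n = 4), 25.2 ± 3.21 for Bmp4, 21.4 ± 1.32 for Bmp5, 18.7 ± 4.73 for Ptch1, 14.3 ± 1.44 for Hhip and 12.5 ± 1.64 for Smo. The Gli factors were lowest, with Gli1 at 6.66 ± 0.991, Gli2 at 3.10 ± 0.905 and Gli3 at 0.991 ± 0.0677. Shh stood above Bmp4 in every pairing of libraries, and Smo above Gli1, Gli1 above Gli2 and Gli2 above Gli3 likewise. Bmp4 and Bmp5, Bmp5 and Ptch1, Ptch1 and Hhip, and Hhip and Smo were neighbours whose WT libraries overlapped.

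The WT libraries were not alike in all members. Ptch1 was 1.56 times and Gli2 1.66 times as high in WT replicates 1 and 2 as in replicates 3 and 4, and the libraries of these pairs did not overlap in CPM for either gene. Bmp4 (1.24 times), Gli1 (1.24 times), Smo (1.21 times) and Gli3 (1.12 times) also lay higher in replicates 1 and 2 without overlap, whereas Shh, Hhip and Bmp5 overlapped. The same replicates differed in Y chromosome and Xist levels as given above, and the part of that difference in these values was not tested.

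The comparisons with WT used the quasi-likelihood test of edgeR, two-sided, with a threshold of 0.05 on p-values adjusted by Benjamini-Hochberg over all tested genes. Of the 9 members 7 passed in OMD-/-, 6 higher and 1 lower, where 29.4% of 16647 tested genes passed in either direction, 14.3% higher and 15.1% lower. The OMD-/- and WT libraries did not overlap in the same 7 members, 6 above and 1 below, against 38.9% of all tested genes, 19.2% above and 19.7% below. The median log2 fold change of the members was 0.53, and that of all tested genes was −0.00020. The members that passed were the ligand, the receptor, Smo, Gli2, Hhip and both Bmp ligands, and those that did not were Gli1 and Gli3.

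Shh, the ligand, was read at ENSMUSG00000002633, chromosome 5, 28456815 to 28467256 on the − strand, with 2847 exon bases. Its WT libraries stood at 160.1, 151, 154 and 182 CPM in replicates 1 to 4. The OMD-/- libraries stood at 126, 129 and 133 CPM, and the PRELP-/- libraries at 83.2, 131 and 145 CPM. All 6 knockout libraries lay below the 4 WT libraries. In bulk RNA, fewer cells of a type and less RNA per cell cannot be told apart. Shh fell in OMD-/- by 0.33 on the log2 scale (SE 0.088, adjusted p = 0.0175), which is 0.798 times the WT level. In PRELP-/- the log2 fold change was −0.45 (SE 0.204, adjusted p = 0.200) and did not pass. The fall in OMD-/- lost significance when any of the 3 OMD-/- libraries was left out (adjusted p = 0.0563, 0.0702 and 0.0569 without replicates 1, 2 and 3). Shh shares 446 exon bases with 9530036O11Rik and 361 with Gm26894, both on the opposite strand, and whether the counting used strand is not given in the sources used here. Gm26894 averaged 18.8 CPM in WT, 12.1 CPM in OMD-/- and 18.4 CPM in PRELP-/-, and 9530036O11Rik 7.14, 5.30 and 6.23 CPM. If strand was not used, reads of these RNAs and of Shh cannot be told apart there.

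**Figure D1:**
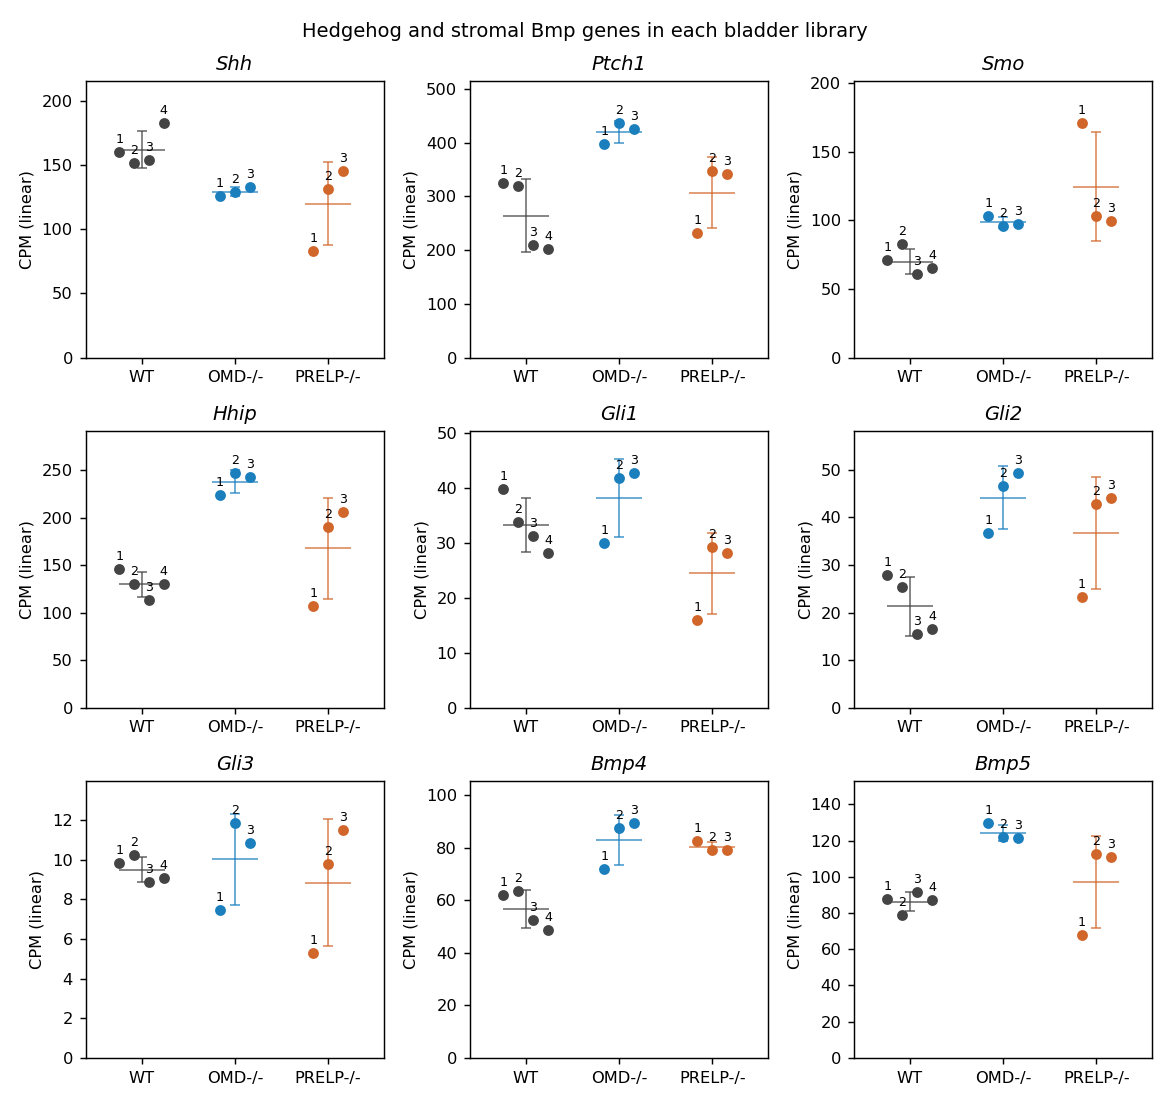
Normalised level in CPM (vertical axes, each from 0) of the 9 members in each library, by genotype, with the group mean as a bar and replicate numbers beside the points. The OMD-/- points lie above all WT points for Ptch1, Smo, Gli2, Hhip, Bmp4 and Bmp5 and below them for Shh, and PRELP-/- replicate 1 stands apart from replicates 2 and 3 in every member but Bmp4.

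Ptch1 encodes the receptor that binds Shh and is itself a target of the pathway (ENSMUSG00000021466, chromosome 13, 63508328 to 63573598, − strand). WT replicates 1 to 4 stood at 326, 319.5, 210.4 and 203 CPM. The OMD-/- libraries, at 397, 436 and 426 CPM, all lay above them. The PRELP-/- libraries stood at 232, 348 and 342 CPM and overlapped with WT. In OMD-/- Ptch1 rose 1.59-fold (log2 0.67, SE 0.167, adjusted p = 0.0140), a call that was lost without OMD-/- replicate 2 (adjusted p = 0.0541) or replicate 3 (0.0523). In PRELP-/- the log2 fold change was 0.20 (SE 0.242, adjusted p = 0.631).

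Smo, the membrane protein that passes the signal on, lies on chromosome 6, 29735503 to 29761365, + strand (ENSMUSG00000001761). It was at 70.9, 82.5, 61.1 and 65.6 CPM in WT, at 103, 95.6 and 97.3 CPM in OMD-/- and at 171, 103 and 99.7 CPM in PRELP-/-. All 6 knockout libraries stood above all 4 WT libraries, and PRELP-/- replicate 1 was the highest of all. Smo rose 1.41-fold in OMD-/- (log2 0.49, SE 0.099, adjusted p = 0.00437). In PRELP-/- its log2 fold change of 0.81 (SE 0.207) was larger but had an adjusted p of 0.0522.

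Gli1 is the transcription factor whose own gene responds most directly to the pathway (ENSMUSG00000025407, chromosome 10, 127329882 to 127341974, − strand). Its WT libraries stood at 39.8, 33.9, 31.3 and 28.1 CPM and the OMD-/- libraries at 29.9, 41.8 and 42.6 CPM. The PRELP-/- libraries were at 16, 29.2 and 28.2 CPM. Gli1 thus overlapped with WT in both knockouts. The log2 fold change was 0.20 in OMD-/- (SE 0.148, 95% interval −0.13 to 0.52, adjusted p = 0.351) and −0.46 in PRELP-/- (SE 0.236, interval −0.99 to 0.080, adjusted p = 0.253). Neither passed, and the intervals do not exclude moderate changes. Without OMD-/- replicate 1 the log2 fold change in OMD-/- was 0.35 (adjusted p = 0.0759), and with limma-voom and sample quality weights it was 0.36 and passed (adjusted p = 0.0279). Gli1 shares 62 exon bases with Arhgap9 on the opposite strand, which averaged 5.50 CPM.

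Gli2, which carries most of the activating function of the family (ENSMUSG00000048402, chromosome 1, 118834132 to 119053619, − strand), stood at 27.9, 25.3, 15.5 and 16.5 CPM in WT. It was at 36.7, 46.5 and 49.2 CPM in OMD-/-, above every WT library, and at 23.2, 42.8 and 44.0 CPM in PRELP-/-, where replicate 1 lay within the WT range. Gli2 had the largest increase of the 9 members in OMD-/-, 2.06-fold (log2 1.05, SE 0.204, adjusted p = 0.00453). In PRELP-/- its log2 fold change was 0.77 (SE 0.293, adjusted p = 0.141).

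Gli3, which acts largely as a repressor (ENSMUSG00000021318, chromosome 13, 15463235 to 15730026, + strand), was the least abundant member. It stood at 9.81, 10.3, 8.86 and 9.08 CPM in WT, at 7.45, 11.8 and 10.8 CPM in OMD-/- and at 5.28, 9.78 and 11.5 CPM in PRELP-/-. Both knockouts straddled the WT range, with log2 fold changes of 0.080 (SE 0.168, adjusted p = 0.754) in OMD-/- and −0.11 (SE 0.256, adjusted p = 0.806) in PRELP-/-.

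Hhip encodes a membrane protein that binds and sequesters Hedgehog ligands, and its gene is induced by the pathway (ENSMUSG00000064325, chromosome 8, 79965851 to 80058006, − strand). The WT libraries stood at 146, 129.9, 114 and 129.9 CPM. The OMD-/- libraries stood at 224, 247 and 242 CPM, well clear of WT, and the PRELP-/- libraries at 107, 190.2 and 206 CPM. Hhip rose 1.83-fold in OMD-/- and had the smallest adjusted p of the members (log2 0.87, SE 0.092, adjusted p = 0.000111). PRELP-/- replicates 2 and 3 lay above WT and replicate 1 below it, and the log2 fold change was 0.35 (SE 0.228, adjusted p = 0.347).

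Bmp4 and Bmp5 are secreted ligands of Bmp receptors. Bmp4 (ENSMUSG00000021835, chromosome 14, 46383520 to 46390669, − strand) stood at 62.0, 63.5, 52.3 and 48.7 CPM in WT, at 72.0, 87.7 and 89.2 CPM in OMD-/- and at 82.4, 79.0 and 79.2 CPM in PRELP-/-. All 6 knockout libraries were above WT, and the PRELP-/- libraries lay close together, replicate 1 included. Bmp4 rose 1.46-fold in OMD-/- (log2 0.55, SE 0.115, adjusted p = 0.00536). In PRELP-/- its log2 fold change was 0.48 (SE 0.141, adjusted p = 0.0752).

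Bmp5 (ENSMUSG00000032179, chromosome 9, 75775364 to 75900310, + strand) stood at 87.6, 78.9, 91.5 and 87.3 CPM in WT and at 129, 122 and 122 CPM in OMD-/-. It was at 67.8, 112 and 111 CPM in PRELP-/-, with replicate 1 below all WT libraries and replicates 2 and 3 above them. Bmp5 rose 1.44-fold in OMD-/- (log2 0.53, SE 0.077, adjusted p = 0.000810). The log2 fold change in PRELP-/- was 0.15 (SE 0.195, adjusted p = 0.647).

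Since Hhip and Bmp5 rose together in OMD-/- with the smallest adjusted p-values of the members, the 250 bases before the start of each were read from RefSeq (GRCm38.p6, 5′ to 3′ on the strand of the gene). RefSeq promoters were found for 7 of the 9 members, and those of Shh and Gli1 were not in the table used here. Capitals mark the core of the Gli binding motif.
Bmp5, chr9:75775115-75775364, + strand: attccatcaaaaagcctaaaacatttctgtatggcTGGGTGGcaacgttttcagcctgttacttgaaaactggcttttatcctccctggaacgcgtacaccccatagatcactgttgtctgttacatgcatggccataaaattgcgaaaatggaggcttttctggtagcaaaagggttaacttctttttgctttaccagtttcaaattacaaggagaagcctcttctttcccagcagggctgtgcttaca
Hhip, chr8:80058009-80058258, − strand: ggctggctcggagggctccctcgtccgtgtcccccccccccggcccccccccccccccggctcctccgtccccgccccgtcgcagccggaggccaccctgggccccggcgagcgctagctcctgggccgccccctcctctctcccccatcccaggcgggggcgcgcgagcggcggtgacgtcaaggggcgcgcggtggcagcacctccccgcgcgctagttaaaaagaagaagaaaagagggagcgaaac

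The 7-letter core CCACCCA, searched on both strands (TGGGTGG on the other) in the 300 bases around each start, was found in 3056 of 32851 RefSeq promoters, or 9.30%. Among the 7 members with a promoter it was found in 1, Bmp5, where it lies 215 bases before the start and on the other strand. The longer consensus GACCACCCA, which holds the core, was found in 83 promoters, or 0.253%, and in 0 of the 7. The Hhip stretch holds no core and is 76.0% G and C, against 42.8% for the Bmp5 stretch. A match describes letters only, and no match says only that these letters are not in this window.

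In PRELP-/- 0 of 9 members passed the edgeR test, where 7.29% of 16581 genes did (1.4% higher and 5.89% lower), and 3 members (Smo, Gli2 and Bmp4) had an unadjusted p under 0.05. DESeq2's Wald test passed 2 members and 17.6% of genes, and limma-voom with sample quality weights 7 members and 42% of genes. The PRELP-/- and WT libraries did not overlap in 3 members (Shh lower, Smo and Bmp4 higher), against 30% of all tested genes, 13.6% above and 16.4% below. The median log2 fold change of the members was 0.20, beside 0.023 over all tested genes. The result turned on replicate 1. Without it 5 members passed, namely Smo (log2 0.55, adjusted p = 0.0112), Gli2 (1.03, 0.0130), Hhip (0.62, 0.00398), Bmp4 (0.49, 0.0165) and Bmp5 (0.38, 0.0136), and Shh (−0.22, 0.158), Ptch1 (0.40, 0.184), Gli1 (−0.20, 0.315) and Gli3 (0.17, 0.403) did not. Without that library 3807 genes passed in place of 1209, or 22.2% of those tested. The PRELP-/- libraries left, replicates 2 and 3, were a close pair, so the spread in this fit is small. With close pairs summed and counted as 1 sample, 0 members passed, and 0.0709% of 18335 genes did.

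**Figure D2:**
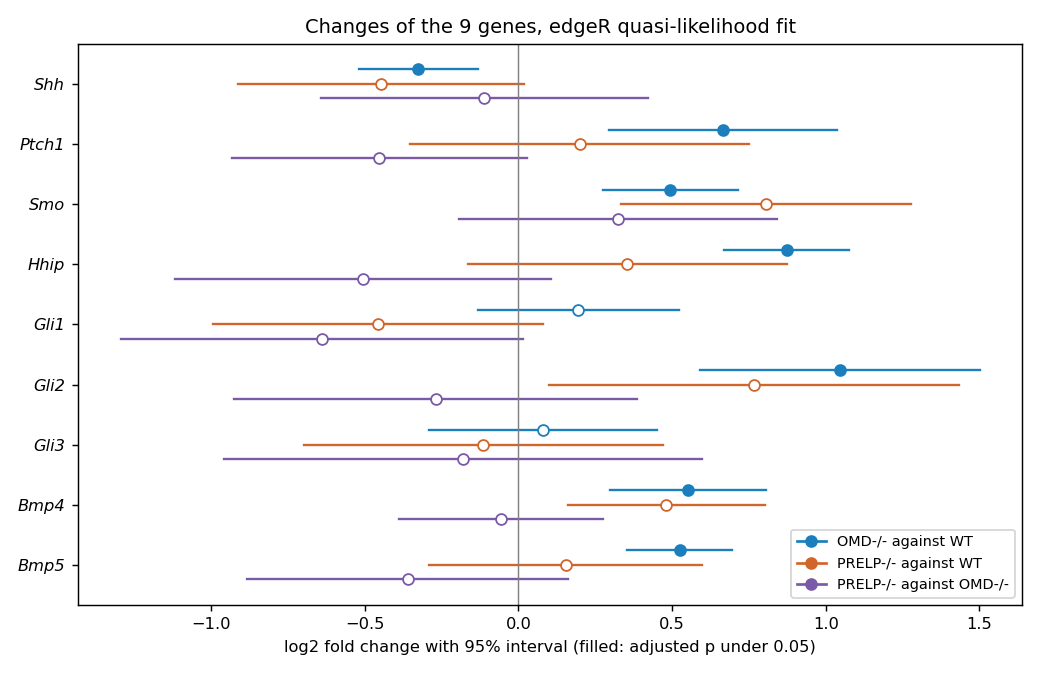
Log2 fold change of each member (horizontal axis) in OMD-/- against WT, PRELP-/- against WT and PRELP-/- against OMD-/-, with 95% intervals as bars. Filled points have an adjusted p under 0.05. 7 of 9 points are filled for OMD-/- against WT and none for the other comparisons.

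The knockouts were also compared with each other. In PRELP-/- against OMD-/-, 0 of 9 members passed, where 0.00633% of 15805 genes did (1 gene, Prelp itself), and 0 members had an unadjusted p under 0.05 in the fit without a block. The smallest adjusted p was 0.690. DESeq2 passed 0 members and 0.342% of genes, and limma-voom with sample quality weights 3 members and 6.39% of genes. Of the members, 4 had every PRELP-/- library below every OMD-/- library (Ptch1, Gli1, Hhip and Bmp5), against 15.1% of genes without overlap in either direction, 6.38% above and 8.72% below. The log2 fold change was −0.64 for Gli1 (95% interval −1.29 to 0.016), −0.51 for Hhip (−1.12 to 0.11), −0.45 for Ptch1 (−0.93 to 0.028) and −0.36 for Bmp5 (−0.88 to 0.16). It was 0.32 for Smo (−0.19 to 0.84), −0.27 for Gli2 (−0.92 to 0.39), −0.18 for Gli3 (−0.96 to 0.60), −0.11 for Shh (−0.64 to 0.42) and −0.056 for Bmp4 (−0.39 to 0.28). A member that passed in OMD-/- and not in PRELP-/- was not shown to differ between them. Same-numbered libraries of the 2 knockouts deviated together, though a pairing by number was not shown. With the replicate number as a block 43 genes passed in place of 1, none of them a member. In that edgeR fit 3 members had an unadjusted p under 0.05, namely Gli1 (log2 −0.67, SE 0.155, adjusted p = 0.403), Ptch1 (−0.48, SE 0.179, adjusted p = 0.503) and Hhip (−0.56, SE 0.211, adjusted p = 0.503).

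**Figure D3:**
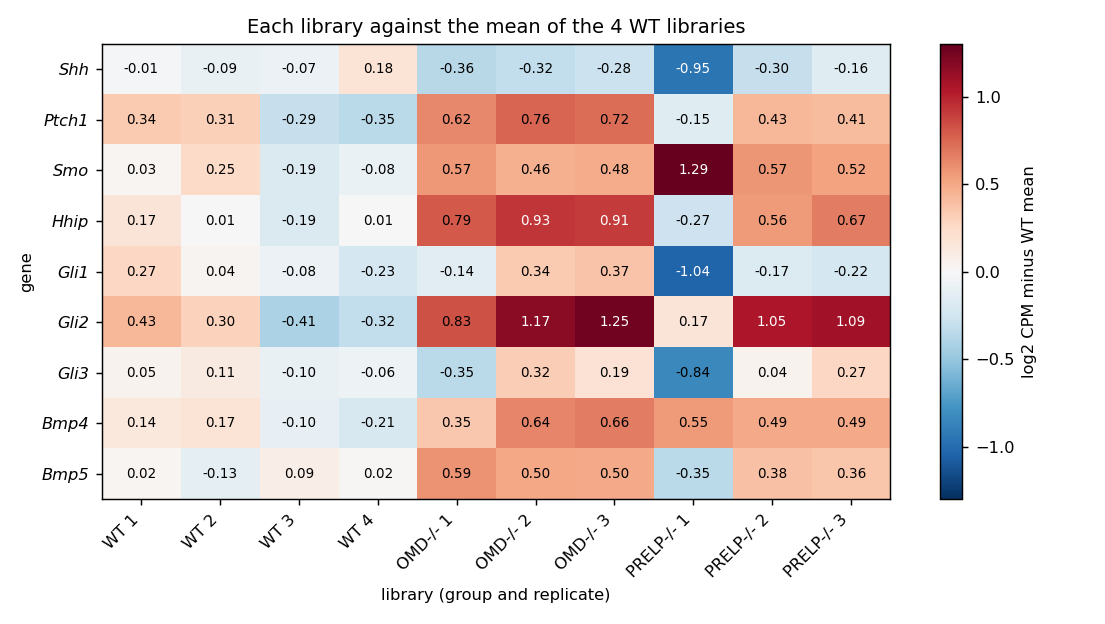
Log2 CPM of each member in each library minus its mean over the 4 WT libraries, written in each cell and coloured (red above WT, blue below). The 3 OMD-/- columns are red for Ptch1, Smo, Gli2, Hhip, Bmp4 and Bmp5, and the PRELP-/- replicate 1 column departs from its neighbours in most members.

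Because the libraries differed in Y chromosome level, the members were read within the libraries that were low in it, OMD-/- replicates 2 and 3 against WT replicates 3 and 4. All 9 members then passed, where 53.7% of 16740 genes did. Shh was lower (log2 −0.36) and the other 8 higher, with Gli2 at 1.58, Ptch1 at 1.06, Hhip at 1.01, Bmp4 at 0.81, Smo at 0.61, Gli1 at 0.51, Bmp5 at 0.45 and Gli3 at 0.34. These are also the pairs of libraries that resembled each other most within their groups, so the spread in this fit is small. They were alike in Y chromosome level but not in Xist, at 88.8 and 76.6 CPM in the OMD-/- pair and 1020.2 and 1227 CPM in the WT pair. WT replicates 3 and 4 were also the lower WT libraries for Ptch1, Gli2, Bmp4, Gli1, Smo and Gli3. When close pairs were instead summed and counted as 1 sample, 3 members passed in OMD-/- (Hhip, Smo and Bmp5), where 9.06% of 18310 genes did, and the log2 fold changes of all 9 stayed between −0.33 and 0.98. PRELP-/- had no library with Y chromosome genes under 18.9 CPM, so no such reading was possible there.

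Levels of cell type markers also differed between the groups, those of fibroblasts among them. The summed level of the 9 fibroblast markers was 18033, 21519 and 22055 CPM in the OMD-/- libraries, all above the WT maximum of 9699.7 CPM. In OMD-/- 6 of the 9 markers rose, where 14.3% of all tested genes did. In PRELP-/- 2 of 9 markers rose, where 1.4% of all tested genes did. The PRELP-/- sums were 10261, 19992 and 19580.4 CPM in replicates 1 to 3. Replicate 1, with the lowest of these sums, was also the lowest PRELP-/- library for Shh, Gli1, Gli2, Gli3, Ptch1, Hhip and Bmp5. It was the highest PRELP-/- library for Smo (171 CPM) and Bmp4 (82.4 CPM). It also had the highest umbrella cell sum, 23442 CPM, and the highest basal sum, 5154 CPM. Umbrella cell sums were 11698 to 15853 CPM in OMD-/- and 13363 to 23442 CPM in PRELP-/-, all above the WT maximum of 11166 CPM. Basal sums were 3484 to 4706 CPM in OMD-/- and 3915 to 5154 CPM in PRELP-/-, all above the WT maximum of 3423 CPM. Leukocyte markers summed to 93.6 to 100.3 CPM in WT, 126 to 264 CPM in OMD-/- and 92.3 to 141 CPM in PRELP-/-, and endothelial markers to 152 to 337, 376 to 435 and 230.2 to 401 CPM. Smooth muscle markers summed to 339 to 1359.6 CPM in WT, 419.8 to 859 CPM in OMD-/- and 264 to 274 CPM in PRELP-/-, and nerve and glia markers to 466 to 550.2, 458 to 572 and 579 to 920.1 CPM. In OMD-/- 6 of 8 leukocyte, 3 of 7 umbrella cell, 2 of 6 tested basal and 1 of 5 tested nerve and glia markers rose. Of the 8 smooth muscle and 6 endothelial markers 0 passed there. In PRELP-/- 1 of 7 umbrella cell markers rose, 1 of 5 tested nerve and glia markers fell, and 0 basal or leukocyte markers passed.

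**Figure D4:**
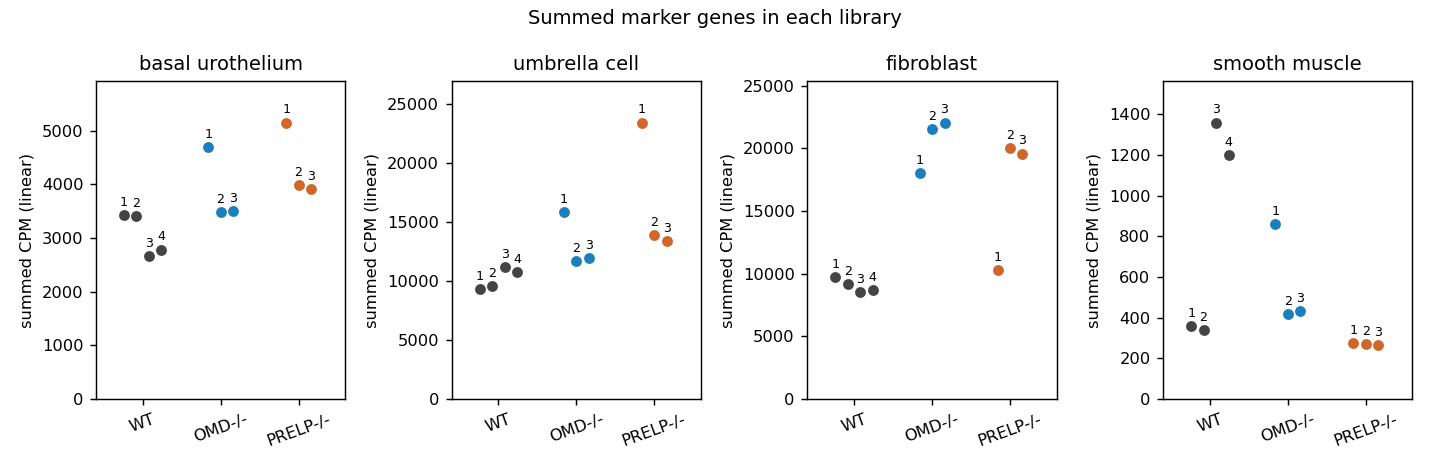
Summed CPM of marker lists in each library, by genotype, for 4 of the lists, on linear axes from 0 with replicate numbers above the points. The fibroblast sum lies at 18033 to 22055 CPM in OMD-/- and at 8564 to 9699.7 CPM in WT, and PRELP-/- replicate 1 lies near WT at 10261 CPM.

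Set against the mean log2 level of the 9 fibroblast markers in the same library, the 6 members that rose in OMD-/- differed from WT by less than in CPM, and Shh by more. The mean difference between OMD-/- and WT on this scale was 0.29 for Gli2, 0.087 for Hhip, −0.090 for Ptch1, −0.24 for Bmp4, −0.26 for Bmp5 and −0.29 for Smo. It was −0.60 for Gli1, −0.74 for Gli3 and −1.11 for Shh. In PRELP-/- the corresponding values were 0.44 for Smo, 0.42 for Gli2, 0.16 for Bmp4, −0.031 for Hhip, −0.12 for Ptch1, −0.22 for Bmp5, −0.52 for Gli3, −0.82 for Shh and −0.83 for Gli1. Without PRELP-/- replicate 1, an alternative chosen after seeing the data, those of Smo and Bmp4 turned to −0.14 and −0.19, and that of Ptch1 was −0.26. The values nearest 0 also turned when 1 other library was left out, among them those of Ptch1 in both knockouts without WT replicate 2 (0.049 and 0.017) and that of Hhip in PRELP-/- without WT replicate 1 (0.030). Shh set against the 7 basal urothelial markers, the cells known to make it, differed from WT by −0.43 in OMD-/- and −0.83 in PRELP-/-, or −0.42 without PRELP-/- replicate 1. On this scale the highest OMD-/- library (0.29) and the highest PRELP-/- library (0.30) lay above the lowest WT library (0.25), so the groups overlapped. These were OMD-/- replicate 2 and PRELP-/- replicate 3, in which 6 of the 7 basal markers had over 3 counts. OMD-/- replicates 2 and 3 had basal sums of 3484 and 3502 CPM but mean log2 levels of 6.73 and 6.98. The part of a marker near the floor in the overlap was not tested. All values set against markers are descriptions of ratios within libraries, and the part of stromal or epithelial content in the members' changes was not tested.

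Around the members, 92 other genes of the Hedgehog and Bmp pathways were read from 8 lists. In OMD-/- 35 of 85 tested list genes passed, 27 higher and 8 lower, or 41.2% beside 29.4% of all genes. In PRELP-/- 5 of 84 passed, 4 higher and 1 lower, or 5.95% beside 7.29%. The OMD-/- count was 22 without OMD-/- replicate 2 and 23 without replicate 3, where 18.2% and 17.2% of all genes passed. The PRELP-/- count was 27 without PRELP-/- replicate 1, where 22.2% of all genes passed, and 1 to 3 without any other single library, where 2.77% to 4.4% did. In PRELP-/- against OMD-/- 0 of 83 passed the edgeR test, 9 had an unadjusted p under 0.05 and limma-voom passed 7.

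Among genes for ligands and their release, 3 of 6 tested rose in OMD-/- and 0 fell, or 50% beside 29.4% of all genes. Disp1, which exports lipid-bearing Hedgehog from the producing cell, went from 5.82 ± 1.72 CPM in WT (mean ± SD, n = 4) to 12.5 ± 0.551 CPM (n = 3), a log2 change of 1.11 (SE 0.199, adjusted p = 0.00236). Scube1 (log2 0.66) and Scube2 (0.30), secreted helpers of Hedgehog release, rose as well. Of 6 receptors and co-receptors, 2 rose, or 33.3% beside the same 29.4%. Gpc3, a glypican that binds Hedgehog at the cell surface, rose from 27.3 ± 9.30 to 58.1 ± 2.21 CPM (log2 1.09, adjusted p = 0.00819).

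Of 18 regulators of Gli activity, 5 rose and 1 fell in OMD-/-, so 33.3% passed, near the 29.4% of all genes. Evc (log2 0.75) and Evc2 (0.54), which act with Smo at the base of the primary cilium, and Sufu (0.45), which binds and restrains Gli proteins, were among those that rose. The Sufu call was lost without OMD-/- replicate 2 or 3, with adjusted p up to 0.0729. Ulk3, a kinase of Gli proteins, fell from 17.8 ± 0.782 CPM in WT to 9.83 ± 1.09 CPM in OMD-/- (log2 −0.85, SE 0.116, adjusted p = 0.000507) and to 9.08 ± 0.748 CPM in PRELP-/- (−0.99, SE 0.143, adjusted p = 0.00562). Every knockout library of both genotypes lay below every WT library for Ulk3, and the call held in each fit that left out 1 library.

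Of 10 tested stromal genes known to respond to Hedgehog, 5 rose and 0 fell in OMD-/-, or 50% beside 29.4% of all genes. In PRELP-/- 2 rose, or 20% beside 7.29%. Tcf21, a transcription factor of mesenchyme, went from 96.0 ± 5.31 CPM in WT to 170.1 ± 7.92 CPM in OMD-/- (log2 0.82, SE 0.073, adjusted p = 3.8e-05) and 148 ± 12.3 CPM in PRELP-/- (0.61, SE 0.130, adjusted p = 0.0271). Wnt2, a secreted Wnt ligand, rose by a log2 of 0.73 in OMD-/- (adjusted p = 0.000166) and 0.84 in PRELP-/- (adjusted p = 0.0382). In PRELP-/- the Tcf21 call held among the fits that left out 1 library only without PRELP-/- replicate 1 (adjusted p up to 0.103 in the others), and the Wnt2 call only without PRELP-/- replicate 1 or 3 (up to 0.124). Foxl1 (log2 0.84) and Osr1 (0.82), transcription factors of mesenchyme, also rose in OMD-/-.

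Of 9 tested Bmp ligands, 3 rose in OMD-/- and 0 fell, or 33.3%, near the 29.4% of all genes. Bmp3 went from 322 ± 8.23 to 434 ± 13.5 CPM (log2 0.43, SE 0.075), with Bmp2 at 0.31 and Bmp10, at under 7 CPM in every library, at 0.58. The Bmp2 call was lost without OMD-/- replicate 2 (adjusted p = 0.0608), and the Bmp10 call without WT replicate 2 or any OMD-/- library (up to 0.0983). Of 10 receptors and co-receptors 3 rose, or 30%, also near that share. They were the type I receptor Acvr1 (0.45), the type II receptor Bmpr2 (0.36) and the co-receptor Eng (0.75). Each of these calls was lost without OMD-/- replicate 2 or 3, that of Bmpr2 also without WT replicate 3 and that of Eng also without WT replicate 4, with adjusted p up to 0.0759 for Acvr1, 0.0848 for Bmpr2 and 0.0898 for Eng. Eng is best known from endothelium. Endothelial markers summed to 376 to 435 CPM in OMD-/- and 152 to 337 CPM in WT, and 0 of the 6 passed in OMD-/-. Their part in the Eng value was not tested.

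Of 13 tested Bmp antagonists and modulators, 5 rose and 1 fell in OMD-/-, so 46.2% passed beside 29.4% of all genes. Nbl1, a secreted antagonist, rose from 198 ± 10.5 to 410 ± 10.1 CPM (log2 1.05, SE 0.076) and reached 345 ± 40.0 CPM in PRELP-/- (0.78, SE 0.143, adjusted p = 0.0149). Sostdc1, a secreted antagonist of Bmp and Wnt signals, rose from 2.92 ± 0.820 CPM in WT to 8.13 ± 0.792 CPM in OMD-/- (log2 1.47, SE 0.214) and 8.73 ± 2.77 CPM in PRELP-/- (1.55, SE 0.278, adjusted p = 0.0143). In PRELP-/- the Sostdc1 call was lost without WT replicate 3 (adjusted p = 0.0538) and the Nbl1 call without WT replicate 3 or 4 or PRELP-/- replicate 2 or 3 (up to 0.0687). Fstl1, a secreted follistatin-like protein, rose by 0.42 in OMD-/- (adjusted p = 0.00841).

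The list of Smads and Bmp targets was the only one of the 8 in which more genes fell than rose in OMD-/-, 6 against 1. Of its genes 53.8% passed, beside 29.4% of all genes. Id1, an early target of Bmp Smads, fell from 166 ± 12.1 CPM in WT to 87.5 ± 8.5 CPM in OMD-/- (log2 −0.93, SE 0.092), where every library lay below every WT library. Id2 (−0.48), Id4 (−0.74) and the inhibitory Smad gene Smad7 (−0.63) fell too, and these 4 calls held in each fit that left out 1 library. Id3 (−0.59) and Atoh8 (−0.74) also fell, and Smad1, which carries the Bmp signal to the nucleus, rose by 0.44. These last 3 genes lie outside the rule for naming and were picked after their values were seen. The median log2 fold change of the list was −0.36 in OMD-/-, beside 0.55 and 0.53 for the ligand genes Bmp4 and Bmp5. In PRELP-/- 0 of the 13 passed, with Id1 at −0.31 (SE 0.167, adjusted p = 0.277) and Id3 at 0.0030.

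Genes whose levels followed a member most closely over the 10 libraries were sought among 14476 genes with a mean of at least 1 CPM, by the root mean square difference of log2 CPM after centring each gene. For Shh these were Fnbp1l (0.065), Aftph (0.065) and Kat2b (0.066), where the median over genes was 0.43. For Bmp4 they were Midn (0.051), Procr (0.069) and Zfp385a (0.076), and for Bmp5 Arsa (0.078), Maged1 (0.085) and Ddx58 (0.086). For Gli1 the nearest were Gm11131, Ttc17 and Nsrp1 at 0.11 each. These are likenesses of pattern over the same 10 libraries only, which fall into 3 genotypes and hold 1 library far from its group.

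**Figure D5:**
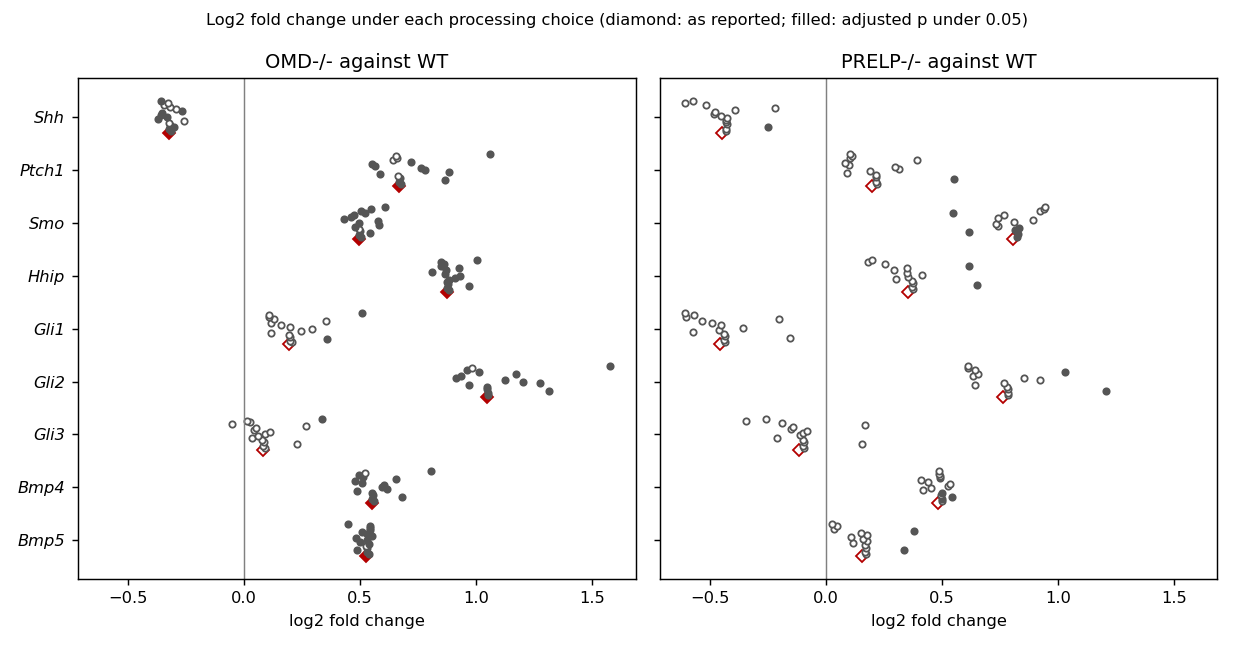
Log2 fold change of each member against WT under each way of processing, with the main value marked and filled points where the adjusted p is under 0.05. For OMD-/- the values of Ptch1, Smo, Gli2, Hhip, Bmp4 and Bmp5 stay above 0 and those of Shh below 0 in every setting.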

How the data were processed

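RNA of mouse bladder was measured by RNA-seq in 10 libraries. Per the labels, libraries were made with a KAPA poly(A), strand-specific kit with molecular identifiers in the adaptors. The deposited files hold raw counts, 1 whole number of reads for each of 55536 genes and 1 library, with no normalization by the authors. The file headers name HISAT2, while the submitters' processing notes list bcl2fastq, STAR 2.5.2b, featureCounts and DESeq2 with builds GRCm38 and hg38 and no role for any of them. How strand was set in counting and whether the identifiers were used are not given in the sources used here, and so counts where genes overlap are uncertain. Deposited tables of the authors' DESeq2 comparisons (fold changes and p-values) were not used.

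Groups were taken from the labels. Gene identifiers were matched to GENCODE vM21 (all 55536), which gave symbols, coordinates and exon lengths. Total counts were 20391437 to 46269079, which puts 3 counts at 0.0648 to 0.147 CPM before scaling, for counting error only. The software was edgeR 4.0.16, with limma 3.58.1 and DESeq2 1.42.0 for alternatives, all run in R 4.3.3. A model was fitted for each comparison on the counts of its own 2 groups with TMM scaling, edgeR's filter on low counts, a robust quasi-likelihood fit and a two-sided test, and p-values were adjusted by Benjamini-Hochberg over all tested genes (threshold 0.05). SEs were taken from the F statistic, and CPM from TMM scaling over all 10 libraries, with a prior count of 2 for log2 CPM. The code was tested on simulated data.

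The 9 members, the 8 pathway lists, the 10 marker lists and the tests were chosen with earlier results of these data known. Named genes were the members, Omd and Prelp, from each list at most the 4 genes with the smallest adjusted p under 0.05 in each comparison with WT, and for Shh, Gli1, Bmp4 and Bmp5 the 3 genes of most similar level. Some genes chosen by this rule are not reported here. Replicate numbers come from the labels. Same-numbered PRELP-/- and OMD-/- libraries deviated together from their group means (Pearson r across genes of 0.385, 0.274 and 0.236). WT and knockout libraries did not (r from −0.153 to 0.193). The main fits used no pairing, and the replicate number entered as a block only in an alternative fit.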

Additional observations from a re-analysis of the deposited data

Results flagged for a closer look

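Fstl1, a secreted follistatin-like protein on the list of Bmp antagonists and modulators, stood out because it lay on opposite sides of the WT mean in the knockouts. Every OMD-/- library (349 to 361 CPM) was above the WT mean of 266 CPM (SD 26.8) and every PRELP-/- library (180.0 to 245 CPM) was below it. The log2 ratio of the PRELP-/- mean to the OMD-/- mean was −0.70. In the direct comparison of the knockouts the fitted log2 fold change was −0.70 (SE 0.171, unadjusted p = 0.00452, edgeR's adjusted p = 0.690), so the difference did not pass after adjustment over all genes. Against WT, Fstl1 passed in OMD-/- (log2 0.42, adjusted p = 0.00841) and not in PRELP-/- (−0.29, adjusted p = 0.288). The OMD-/- call was lost in the fit over all 3 groups and with close pairs summed.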

How the results depend on the processing

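Among the members, the call of Hhip in OMD-/- held under every alternative that was run, those of Bmp5 and Smo under all but the fit over all 3 groups, and those of Bmp4 and Gli2 under all but the summing of close pairs. All 7 called members kept their direction under each. The number of members called in OMD-/- was 7, and it was 5 to 7 when 1 library was left out, 3 in 1 fit over all 3 groups (2485 genes and 14 list genes called) and 3 with close pairs summed, an alternative chosen after seeing the data (1658 genes, 14 list genes). With limma-voom and sample quality weights it was 8, Gli1 being gained (log2 0.36, adjusted p = 0.0279), among 7212 genes. With only the libraries low in Y chromosome genes, also chosen after seeing the data, 8989 genes and 55 list genes passed. Leaving out 1 library gave 2951 to 4850 genes and 22 to 37 list genes, beside 4899 and 35. With the replicate number as a block 6 members passed, Shh being lost (adjusted p = 0.0891), and 3516 genes. These WT and knockout libraries share only a number, so the block is not a pairing.

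In PRELP-/- against WT the count depended on the setting. Members called were 0, and 1 with DESeq2's size factors, 2 with DESeq2's Wald test (2925 genes, 8 list genes), 7 with limma-voom and sample quality weights (6963 genes, 41 list genes), 1 with no filter on low counts, 2 in 1 fit over all 3 groups (2485 genes, 9 list genes), 0 with the replicate block (115 genes, 0 list genes) and 0 with close pairs summed (13 genes, 0 list genes). Leaving out 1 library gave 0 to 5 members, 475 to 3807 genes and 1 to 27 list genes, the highest of each without PRELP-/- replicate 1.

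In PRELP-/- against OMD-/- members called were 0 except with limma-voom (3 members, 7 list genes, 1010 genes). Genes called were 1, and 54 with DESeq2, 5 with no filter, 3 in 1 fit over all 3 groups, 43 with the replicate block, 4 with the Y chromosome level as covariate and 0 with close pairs summed. Leaving out 1 library gave 0 members, 1 to 36 genes and 0 to 1 list genes.

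Directions reversed only for members that had not passed. Leaving out 1 library, the log2 fold change of Gli3 ranged in OMD-/- from −0.051 (without OMD-/- replicate 2) to 0.27, and in PRELP-/- from −0.34 to 0.17 (without PRELP-/- replicate 1). Between the knockouts, Shh ranged from −0.27 to 0.097 and Gli3 from −0.41 to 0.080 (the positive values without PRELP-/- replicate 1), and Bmp4 from −0.15 to 0.0027 (without OMD-/- replicate 3). With limma-voom Gli3 in PRELP-/- became 0.16 and Shh between the knockouts 0.075. With the Y chromosome level as covariate Shh became 0.23, Smo −0.10, Gli1 0.015, Gli2 0.33, Gli3 0.60 and Bmp4 0.12. The cause was not tested.

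With 3 or 4 libraries a group, and PRELP-/- replicate 1 far from the others, a member that did not pass in PRELP-/- was not detectable at this spread and was not shown to be unaltered. Y chromosome level, the close pairs, nuclear RNA and markers of fibroblasts and of urothelium differed between or within groups, and their part in the members' values was not tested.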
